A study of Mus musculus with 8 samples.

Results

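The genes described here encode the semaphorin, ephrin and netrin guidance ligands and their plexin, neuropilin, Eph and Unc5 receptors, measured in ventricles of mouse embryos. They were chosen by gene symbol (Sema3 to Sema7, Plxn, Nrp, Eph, Efn, Ntn, Ntng and Unc5) and by having at least 10 counts in at least 4 of the 8 samples. Of 65 rows whose symbol matched, 51 met this minimum, 28 ligands and 23 receptors, out of 14451 genes tested in the series. The other 14 rows were left out, and 3 of these are antisense transcripts of *Plxna4*. Closest to the minimum were *Ntn4*, *Ntng2* and *Sema4a*, each with 10 counts in 5 samples, while *Sema5b* reached it in 3 samples, *Plxnb3* in 2 and *Efna3* in 1.

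The study compared heart ventricles at embryonic day 9.5 from 4 wild-type samples (WT) with 4 samples of genotype Nrg-1flox;Tie2-Cre (KO), in which neuregulin 1 is deleted in cells that express or once expressed Tie2. Tie2-Cre is active in endothelial cells, the endocardium among them, and it also recombines in blood cells. The myocardium itself is therefore not targeted. The sources used here do not say whether the WT embryos carried the floxed allele or the Cre. Nor do they say whether a sample is 1 embryo or several. The p-values therefore weigh the difference between genotypes against the spread between these samples, which may differ from that between embryos. *Nrg1* itself was at 60.74, 58.56, 70.86 and 71.54 counts in KO and at 156.22, 130.91, 121.05 and 173.25 counts in WT, without overlap (log2 fold change -1.07).

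Guidance cues were first described in growing axons, where they attract or repel the growth cone, and the same families pattern the heart and its vessels. Class 3 semaphorins are secreted and signal through plexins, mostly with a neuropilin as co-receptor, whereas classes 4 to 7 are bound to the membrane. Ephrins are membrane ligands of the Eph receptor tyrosine kinases, and contact between cells can signal in both directions. Netrins are laminin-like proteins, and the secreted netrin 1 binds Unc5 receptors, whereas netrin G proteins are held at the membrane by a lipid anchor and bind other partners. In the heart, *Sema3c* is known from the outflow tract and its neural crest, *Sema6d* with *Plxna1* from trabeculation, *Plxnd1* from endothelium, and *Efnb2* with *Ephb4* from the separation of arteries and veins.

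The libraries held from 11852506 to 14360427 counts in WT and from 12430483 to 14223984 counts in KO. Cardiomyocyte markers, 12 genes, summed to between 37381 and 39561 CPM (counts scaled to a common library size) in WT and to between 35236 and 38804 CPM in KO, and 0 of them passed the test. Erythroid markers rose in KO, 10 of 10, with sums of 17535 to 62184 CPM against 6069 to 7322 CPM in WT. Of 10 endocardial and endothelial markers 1 (*Tek*) fell, and their sum was 851 to 928 CPM in KO and 969 to 1053 CPM in WT. Of 7 outflow and second heart field markers tested 5 fell (*Fgf10*, *Hand1*, *Rspo3*, *Mef2c* and *Wnt11*). *Isl1* (log2 fold change -0.41) and *Fgf8* (0.058) did not pass, and *Tbx1* had too few counts for the test. The sums over this list, in which *Mef2c* and *Hand1* held the most counts, were 216 to 259 CPM in KO against 324 to 346 CPM in WT. Of 6 epicardial markers 2 rose (*Wt1* and *Tbx18*), with sums of 198 to 331 CPM in KO against 128 to 195 CPM in WT. Of 11 hypoxia and stress markers 3 rose (*Slc2a1*, *Mt1* and *Mt2*), and the others did not pass. Their sum was 4267 to 4986 CPM in WT and higher in every KO sample. KO replicate 1 stood highest, at 8099 CPM against 5034 to 5275 CPM in the other KO samples. Of 8 neural crest and neural markers only 2 had enough counts for the test and neither passed, and *Foxd3*, *Tfap2b* and *Pax3* had at most 1 count in any sample. No listed marker was at 0 in all samples. The part that these shifts have in the results below was not tested. In bulk tissue, fewer cells of a type and less RNA per cell cannot be told apart.

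In KO, 5 guidance genes fell and 0 rose. These were the secreted ligands *Sema3a* and *Sema3c* and the Eph receptors *Ephb3*, *Epha4* and *Epha7*, with log2 fold changes from -1.10 to -0.44. In all, 5 of 51 members were called at an FDR under 0.05 (9.8%), where 8.62% of all genes tested were called in either direction. All 5 calls were lower, a direction in which 3.5% of all genes were called, and 0 were higher, against 5.11% of all genes. At an unadjusted p under 0.05, 9 members were lower and 1 was higher, beside 11.9% and 13.1% of all genes (25% in either direction). The samples of the genotypes did not overlap for 9 members that were lower in KO, against 9.45% of all genes, and for 1 that was higher, against 9.52%. In members these shares were 17.6% and 1.96%. The test was the quasi-likelihood test of edgeR, adjusted over all genes.

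Of the 28 ligands 2 fell, and of the 23 receptors 3 fell, beside 3.5% of all genes tested. Without overlap between genotypes, 6 ligands (21.4%) and 3 receptors (13.04%) were lower in KO, beside 9.45% of all genes. The median log2 fold change was 0.034 over ligands and -0.13 over receptors, beside -0.0014 over all genes tested. Values below 0 were found for 18 of 23 receptors and for 13 of 28 ligands, beside 50.3% of all genes tested. The receptor median, taken in each sample relative to the mean of WT, was -0.27, 0.047, -0.14 and -0.14 in KO replicates 1 to 4 and ran from -0.093 to 0.061 in WT. KO replicate 2 was thus not below WT, and the genotypes overlapped. For ligands the same values ran from -0.13 to 0.051 in KO and from -0.076 to 0.065 in WT. The difference between ligands and receptors was not tested.

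**Figure D1:**
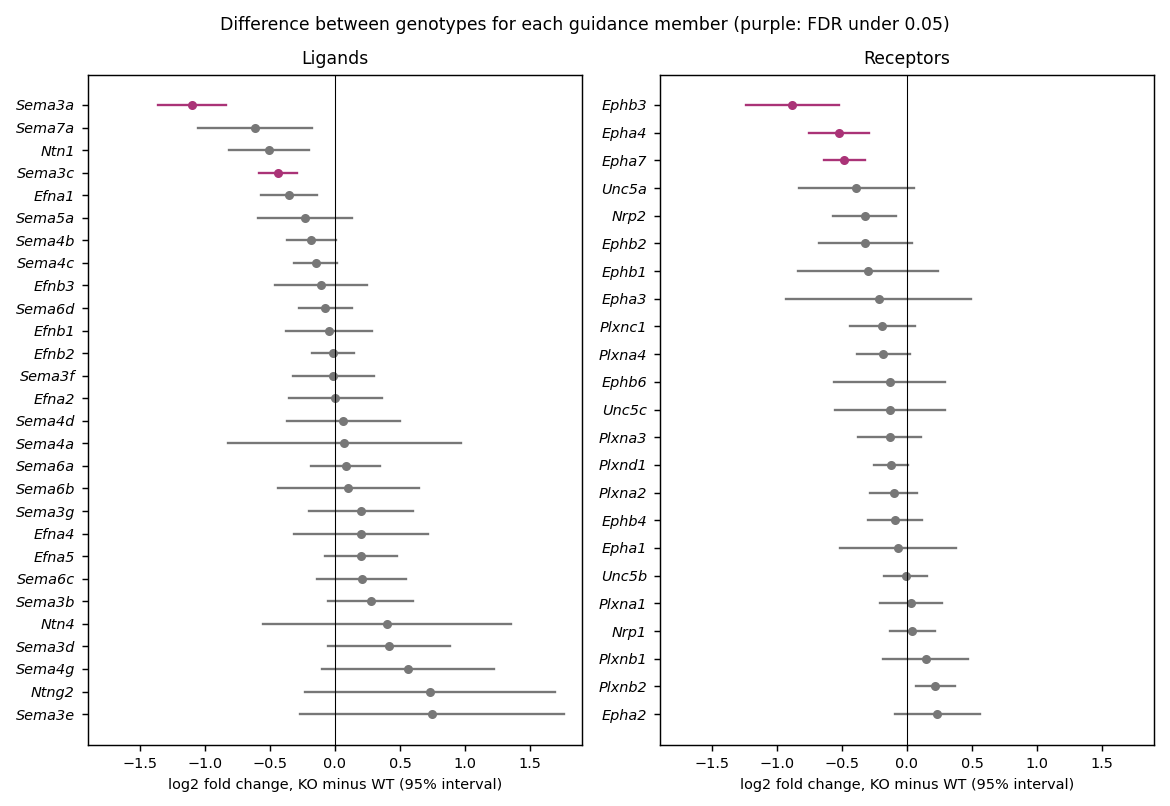
Log2 fold change of KO against WT for each of the 28 ligands and 23 receptors, with its 95% interval from the fit over all genes (horizontal axis, log2). Purple marks the 5 members with FDR under 0.05, all below 0.

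Among ligands, *Sema3a* changed most. It encodes a secreted semaphorin that repels axons through neuropilin 1 and class A plexins. It is on chromosome 5 of GRCm38 from 13125414 to 13602565, on the plus strand. *Sema3a* counts were 210.92, 361, 385 and 281 in KO replicates 1 to 4 and 706, 704, 587 and 757 in WT. Every KO sample was far below every WT sample. The level was 23.7 CPM ± 4.32 (SD, n = 4) in KO and 50.9 CPM ± 2.35 (SD, n = 4) in WT. The log2 fold change was -1.10 (standard error 0.12, adjusted p = 0.00161 from edgeR), and the fitted level fell by 53.3%. It passed in every alternative fit and without any one sample, with log2 fold changes between -1.18 and -0.99.

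*Sema3c* encodes the class 3 semaphorin best known from the outflow tract, and lies on chromosome 5 from 17574281 to 17730268, on the plus strand. *Sema3c* counts were 455, 562, 623 and 457 in KO and 687, 762, 685 and 824 in WT. Scaled for depth, the highest KO sample was at 44.8 CPM and the lowest WT sample at 52.5 CPM. The mean fell from 54.8 CPM ± 1.68 (SD, n = 4) to 40.4 CPM ± 3.18 (SD, n = 4), which is -0.44 on the log2 scale (standard error 0.066, edgeR's adjusted p = 0.00414). *Sema3c* is a marker of the same region as the outflow list, whose sum fell without overlap as given above. In that list *Isl1* and *Fgf8* did not pass, and the relation of *Sema3c* to the list was not tested.

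These ligands belong to a group of 4 class 3 semaphorin genes on chromosome 5, with *Sema3d* from 12383385 to 12588948 and *Sema3e* from 14025276 to 14256689. *Sema3d* was at 12.5, 19, 12.4 and 11.4 CPM in KO and at 13.4, 11.4, 7.48 and 9.26 CPM in WT. Its log2 fold change was 0.41 (95% interval -0.055 to 0.88). *Sema3e*, the ligand that binds plexin D1 directly, was at 66, 39.05, 17 and 16.35 counts in KO and at 18 to 28 counts in WT, a log2 fold change of 0.74 (95% interval -0.27 to 1.76). Neither passed the test. KO replicate 1 stood highest for *Sema3e*, and without it the log2 fold change was 0.15. Of the 7 class 3 semaphorins 2 fell, and 5 did not pass, 4 of them with values above 0, where 3.5% of all genes fell and 50.3% were below 0.

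**Figure D2:**
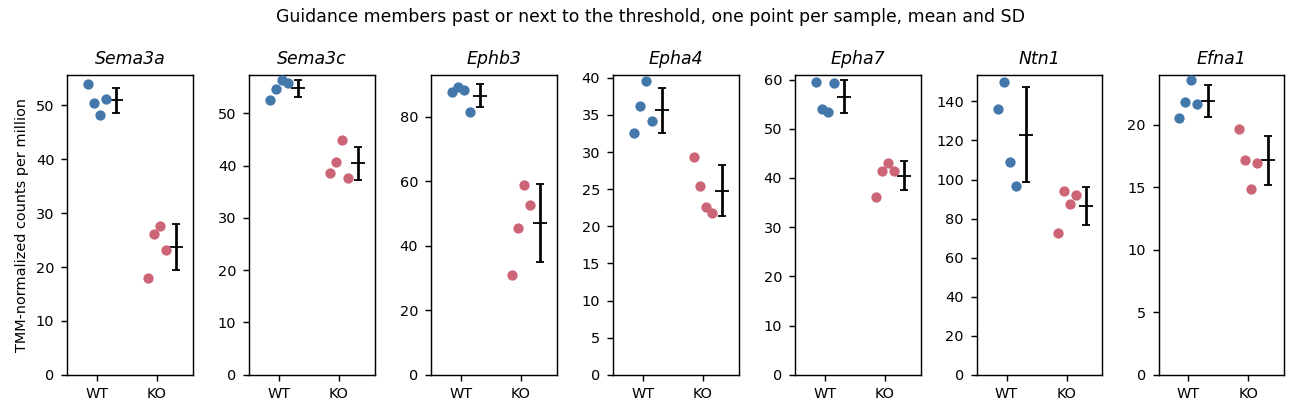
TMM-normalized CPM (vertical axis) of the 5 members that fell and of *Ntn1* and *Efna1*, with 1 point per sample and the mean and SD over 4 samples beside them. In each panel every KO sample lies below every WT sample, for *Sema3a* at 17.9 to 27.7 CPM against 48.2 to 53.9 CPM.

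Among the membrane-bound semaphorins, *Sema7a*, which is anchored to the membrane by a lipid and binds plexin C1, had 23, 24, 29 and 27 counts in KO and 46, 33, 35 and 52 counts in WT. The samples did not overlap, and the log2 fold change of -0.62 (95% interval -1.05 to -0.18) gave an adjusted p of 0.0831 from edgeR. *Sema4c*, the most abundant class 4 gene per length, was at -0.15 (95% interval -0.31 to 0.01). *Sema6d* was at -0.07 (95% interval -0.28 to 0.13), so that a fall of the size seen for *Sema3c* lies outside its interval. *Sema4d*, a ligand of plexin B1, was at 26.9 CPM in KO replicate 1 and at 12.9 to 16.3 CPM in the other KO samples, against 15.9 to 18.3 CPM in WT. *Sema4g*, picked after its values were seen, was at 18.3, 11.9, 7.98 and 6.84 CPM in KO and at 5.58 to 9.62 CPM in WT (log2 fold change 0.56, 95% interval -0.098 to 1.22). Without KO replicate 1 the log2 fold change of *Sema4g* was 0.23. None of the 11 members of classes 4 to 7 passed.

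None of the 7 ephrins passed either. *Efna1*, a lipid-anchored ephrin that binds EphA receptors, came nearest. It was at 19.7, 17.2, 14.9 and 17 CPM in KO and at 20.5, 21.8, 23.6 and 21.6 CPM in WT, without overlap. Its log2 fold change was -0.35 (95% interval -0.57 to -0.14) with an adjusted p of 0.0509 from edgeR, and it passed in 4 of 8 alternative fits. The ephrin B genes encode ligands that span the membrane. *Efnb2* was at -0.01 (95% interval -0.17 to 0.15), and *Efnb3* was at -0.11 (95% interval -0.46 to 0.24). For *Efnb3*, KO replicate 1 had 95.4 CPM and the other KO samples 160 to 166 CPM, within the 139 to 172 CPM of WT.

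*Ntn1*, the gene for netrin 1, was at 72.7, 94.1, 87.4 and 92 CPM in KO and at 136, 150, 109 and 96.5 CPM in WT. The genotypes did not overlap, although the WT samples were themselves spread widely. The log2 fold change was -0.51 (95% interval -0.81 to -0.20), with an adjusted p of 0.0510 from edgeR. *Ntn1* passed in 4 of 8 alternative fits, without KO replicate 1 and without WT replicate 4. *Ntn4* and *Ntng2*, with at most 20 and 36.16 counts in any sample, had intervals from -0.56 to 1.35 and from -0.23 to 1.69 on the log2 scale, and neither passed.

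Among receptors, *Ephb3* fell most. It encodes a receptor tyrosine kinase for ephrin B ligands and is on chromosome 16 from 21204755 to 21223305, on the plus strand. *Ephb3* counts were 363, 628, 818 and 638 in KO and 1146, 1245, 1072 and 1203 in WT. The KO samples were spread from 30.8 to 58.8 CPM, and the WT samples lay close together at 81.3 to 89.2 CPM. The log2 fold change was -0.88 (standard error 0.16, adjusted p = 0.00993 from edgeR), and the fitted level fell by 45.7%. KO replicate 1 was lowest, and without it the log2 fold change was -0.73.

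*Epha7*, a receptor for ephrin A ligands on chromosome 4 from 28813131 to 28967499 (plus strand), had 426, 571, 597 and 503 counts in KO and 779, 753, 651 and 877 counts in WT. It fell from 56.6 CPM ± 3.28 (SD, n = 4) to 40.5 CPM ± 2.99 (SD, n = 4), which is -0.48 on the log2 scale (standard error 0.071, edgeR's adjusted p = 0.00371). An annotated antisense gene, *Gm11915*, overlaps *Epha7*, with at most 13 counts in any sample.

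*Epha4* encodes a receptor that binds ephrins of both classes and lies on chromosome 1 from 77367185 to 77515088, on the minus strand. *Epha4* counts were 346, 351, 314 and 264 in KO and 426, 506, 481 and 506 in WT. The highest KO sample, replicate 1 at 29.3 CPM, was close to the lowest WT sample, replicate 1 at 32.5 CPM. The log2 fold change was -0.52 (standard error 0.10, adjusted p = 0.0144 from edgeR). In 3 fits *Epha4* lost the call while its log2 fold change stayed between -0.53 and -0.47. These were the fit without WT replicate 3 (adjusted p = 0.0516 from edgeR), that with a replicate block (adjusted p = 0.0510 from edgeR) and that with a covariate of Y-linked genes (adjusted p = 0.0575 from edgeR).

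Promoter windows of the genes that fell are shown as a description, and a shared cause of the falls was not tested. They are the 250 bases before a RefSeq start in GRCm38.p6, with matches in capitals on either strand to CCGGAA (ETS core), TGGGAA (RBPJ core), AGATAA (the letters of a GATA factor site), AGGTGT (T-box), GGGCGG (GC box) and ACGTG (HIF core). No motif overlapped another. *Ephb3* is cut to the 210 bases of its window that precede the first annotated exon, so that its HIF match is not in the printed stretch, and *Sema3c* is not printed since its window lies in an annotated exon. The windows are chr5:13396534-13396783 (plus strand) for *Sema3a*, chr1:77515089-77515338 (minus strand) for *Epha4*, chr4:28812881-28813130 (plus strand) for *Epha7* and chr16:21204545-21204754 (plus strand) for *Ephb3*. For *Sema3a* the RefSeq start is 1 of several annotated starts and lies within the gene.
Sema3a: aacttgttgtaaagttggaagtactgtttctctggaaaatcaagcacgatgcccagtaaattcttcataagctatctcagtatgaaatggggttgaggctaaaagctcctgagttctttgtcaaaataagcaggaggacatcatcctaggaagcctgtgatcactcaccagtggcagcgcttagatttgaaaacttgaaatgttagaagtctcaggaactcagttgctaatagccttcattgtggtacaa
Epha4: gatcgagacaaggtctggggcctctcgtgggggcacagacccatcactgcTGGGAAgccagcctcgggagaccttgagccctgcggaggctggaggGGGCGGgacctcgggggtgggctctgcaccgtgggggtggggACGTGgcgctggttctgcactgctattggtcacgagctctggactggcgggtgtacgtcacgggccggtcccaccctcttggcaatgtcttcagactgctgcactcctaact
Epha7: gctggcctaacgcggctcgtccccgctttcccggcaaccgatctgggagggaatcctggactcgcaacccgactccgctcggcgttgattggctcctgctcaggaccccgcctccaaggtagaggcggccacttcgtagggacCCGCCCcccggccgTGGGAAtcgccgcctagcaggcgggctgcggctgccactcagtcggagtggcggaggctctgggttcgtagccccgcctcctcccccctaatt
Ephb3: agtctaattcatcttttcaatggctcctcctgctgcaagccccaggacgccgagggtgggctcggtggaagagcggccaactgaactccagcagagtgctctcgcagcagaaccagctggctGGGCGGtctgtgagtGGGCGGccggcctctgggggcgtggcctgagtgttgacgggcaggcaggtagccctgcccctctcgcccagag

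A GC box was found in the windows of *Sema3c*, *Epha4*, *Epha7* and *Ephb3* and in 32.7% of all 32817 windows, and the RBPJ letters in those of *Epha4* and *Epha7* and in 21.6% of all windows. The HIF letters were in *Sema3c*, *Epha4* and *Ephb3* and in 16.6% of all windows. The ETS, GATA and T-box letters, found in 12%, 9.99% and 11.8% of all windows, were in none of the 5. The *Sema3a* window held no match and had a GC content of 40.8%, whereas the other 4 had 65.6% to 78.4%, beside a median of 52.4% over all windows. Such matches describe letters in these windows and not binding.

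Of the 10 Eph receptors 3 fell, 7 did not pass, and 9 had log2 fold changes below 0, with a median of -0.26. Of all genes tested 3.5% fell and 50.3% were below 0. The exception was *Epha2*, at 0.23 (95% interval -0.10 to 0.56). KO replicate 1 stood highest for *Epha2*, and without it the log2 fold change was 0.055, while that of *Epha1* turned from -0.069 to 0.046. *Ephb4*, the venous partner of ephrin B2, was at -0.09 (95% interval -0.30 to 0.12).

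None of the 8 plexins and 2 neuropilins passed. *Plxnb2*, a receptor of class 4 semaphorins, came nearest and was the only member higher in KO without overlap, at 226, 223, 212 and 215 CPM against 190, 207, 187 and 169 CPM in WT (log2 fold change 0.22, adjusted p = 0.0739 from edgeR). DESeq2 called it higher, with an adjusted p of 0.0221, the only 1 of 8 alternative fits to do so. *Nrp2*, a co-receptor of class 3 semaphorins, was at 62.2, 64.2, 66.2 and 53.8 CPM in KO and at 70.4, 65, 89.2 and 84 CPM in WT (log2 fold change -0.32, adjusted p = 0.0969 from edgeR). *Plxnb2* and *Nrp2* were picked for naming after their values were seen. The interval of *Nrp2* includes the -0.44 of *Sema3c*, running from -0.57 to -0.082. For other receptors of class 3 semaphorins the interval did not reach that value, with *Nrp1* at 0.04 (95% interval -0.13 to 0.21), *Plxna1* at 0.03 (95% interval -0.21 to 0.27) and *Plxnd1* at -0.12 (95% interval -0.25 to 0.0053). *Unc5b*, the netrin receptor of endothelium, was at -0.01 (95% interval -0.18 to 0.15).

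**Figure D3:**
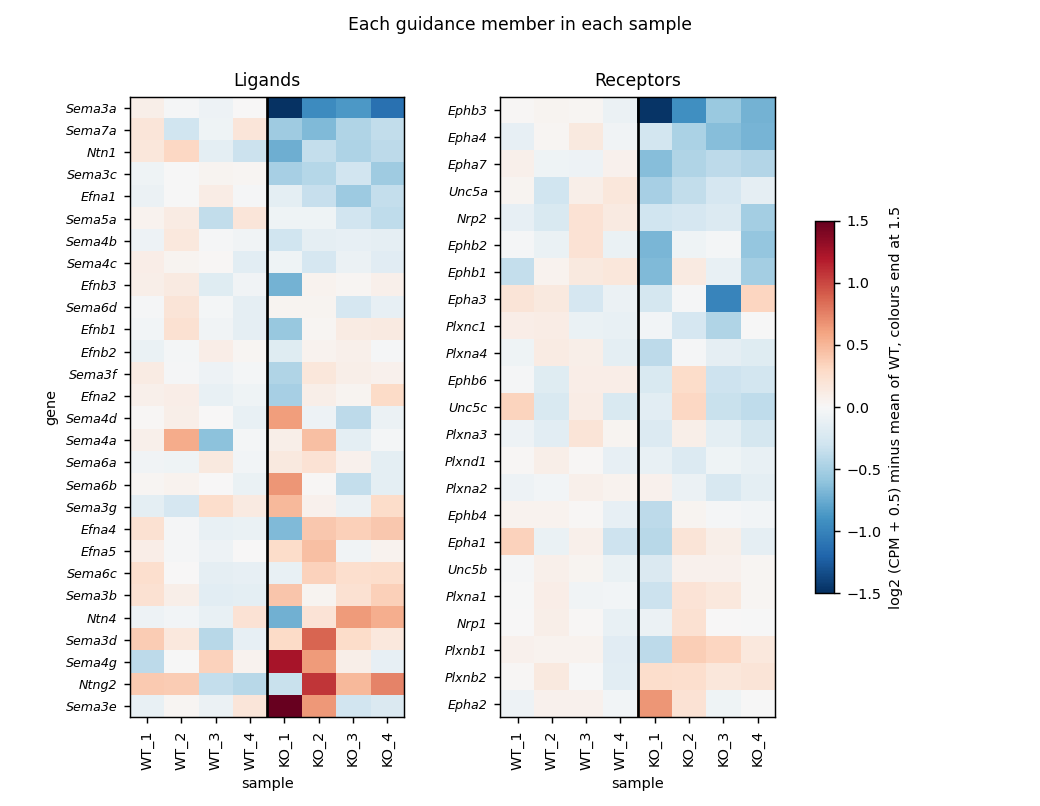
Log2 of CPM plus 0.5 minus the mean of WT for each member (rows) in each sample (columns), ligands at the left and receptors at the right, ordered by log2 fold change. The rows of *Sema3a*, *Sema3c*, *Ephb3*, *Epha4* and *Epha7* are blue in all 4 KO samples, whereas *Sema3e* is red in KO replicates 1 and 2 and pale blue in the other KO samples.

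KO replicate 1 gave the lowest KO value for 24 of the 51 members and the highest for 12, and in it hemoglobin genes took 6.26% of counts, against 1.93% to 3.89% in the other KO samples and 0.671% to 0.799% in WT. Without this sample 9 members were called, 7 lower and 2 higher, beside 17.2% of all genes called in that fit (7.89% lower and 9.35% higher). All 5 members were still among them. Added were *Efna1* and *Ntn1*, lower, and *Efna4* (log2 fold change 0.41, adjusted p = 0.0392 from edgeR) and *Plxnb1* (log2 fold change 0.29, adjusted p = 0.0226 from edgeR), higher.

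Levels of different genes were compared as CPM per kb of exon. By this measure *Efnb3* was the most abundant ligand in WT, at 49.4 ± 4.78 CPM per kb (SD, n = 4), followed by *Ntn1* at 19.6 ± 3.89, *Efnb2* at 14.6 ± 0.844, *Efnb1* at 12.7 ± 1.43 and *Efna1* at 11.97 ± 0.688. *Efnb1* and *Efna1* differed by less than the SD of *Efnb1*. *Sema3c* was the most abundant class 3 semaphorin, at 7.67 ± 0.236 CPM per kb, above *Sema3a* at 3.67 ± 0.169, while *Sema3e* was at 0.174 ± 0.022. Among receptors *Plxnd1* stood first at 40.5 ± 2.35 CPM per kb and *Unc5b* next at 34.4 ± 1.87, followed by *Plxnb2* at 24.4 ± 2.07 and *Ephb4* at 24.2 ± 1.35, which did not differ beyond their spread.

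*Ephb3* was the fifth receptor in WT, at 13.03 ± 0.534 CPM per kb, and the eighth in KO, at 7.06 ± 1.82. Its nearest ranks were within its spread, with *Nrp1* at 12.74 ± 0.744 in WT and *Plxnb1* at 7.35 ± 1.61 in KO. *Sema3a* went from rank 12 to rank 15 among ligands, and *Sema3c* from 7 to 8. *Epha4* stayed at rank 13 among receptors. The order depends on the length taken for a gene. With the longest transcript in place of the union of exons, *Nrp1* moved in WT from rank 6 to rank 3 among receptors and *Ephb3* from rank 5 to rank 6. *Sema3a* moved from rank 12 to rank 9 among ligands, and the first 8 ligands kept their ranks.

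**Figure D4:**
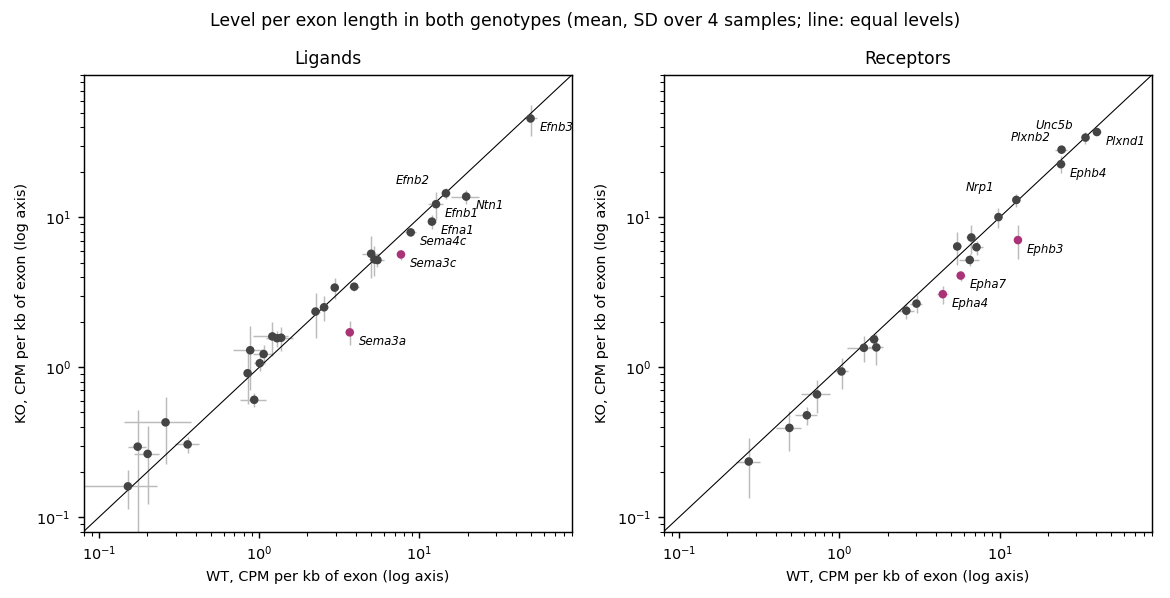
Level per kb of exon in WT (horizontal) and KO (vertical), both on log axes, for each ligand and receptor, with the SD over 4 samples as bars and a line of equal levels. The 5 members that fell (purple) lie below the line, *Sema3a* at 3.67 in WT and 1.71 in KO.

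The change in a ligand was set beside that in a receptor for 10 known pairs as a log2 ratio of levels per kb in each sample, described without a test. For *Sema3a* to *Nrp1* the ratio ran from -3.21 to -2.68 in KO and from -1.897 to -1.67 in WT. For *Sema3c* to *Nrp1* it ran from -1.39 to -1.03 in KO and from -0.83 to -0.59 in WT, and for *Sema3c* to *Plxnd1* from -2.82 to -2.62 and from -2.49 to -2.26. In these pairs it was the ligand that differed, and no KO sample reached the WT range.

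The ratio of *Efna1* to *Epha2* was 0.31, 0.57, 0.65 and 0.77 in KO and 1.07 to 1.18 in WT. That of *Ntn1* to *Unc5b* was -1.37 to -1.25 in KO and -1.06 to -0.60 in WT. Both pairs were also apart, although no gene of either passed the test by itself. By contrast *Efnb2* to *Ephb4* ran from -0.72 to -0.51 in KO and from -0.88 to -0.57 in WT, and *Sema6d* to *Plxna1* from -1.27 to -0.49 and from -0.95 to -0.77, with overlap. *Sema4d* to *Plxnb1*, *Sema7a* to *Plxnc1* and *Sema3e* to *Plxnd1* overlapped too.

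**Figure D5:**
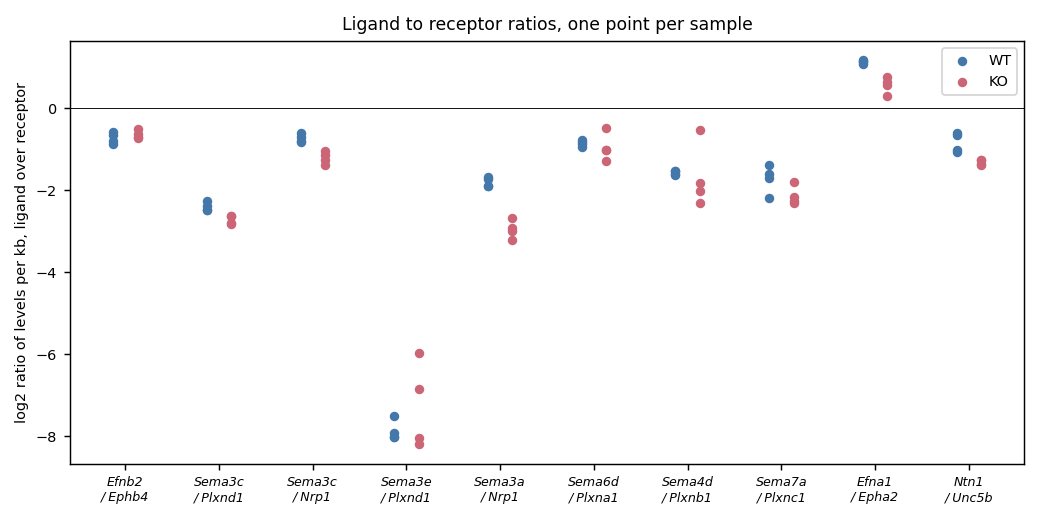
Log2 ratio of ligand to receptor levels per kb (vertical axis) for 10 pairs, with 1 point per sample (blue WT, red KO). WT and KO separate for *Sema3a* and *Sema3c* with their receptors, *Efna1* with *Epha2* and *Ntn1* with *Unc5b*, and mix for *Efnb2* with *Ephb4*.

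Of 47 other genes of guidance pathways, co-receptors and effectors that the symbols above do not take, 42 were tested. Of these 3 fell and 0 rose, where 3.5% of all genes tested fell and 8.62% were called in either direction. *Dpysl2* and *Dpysl3* encode collapsin response mediator proteins, which act on microtubules and actin downstream of semaphorin 3A in neurons. *Dpysl3* fell from 525 to 385 CPM (log2 fold change -0.45, adjusted p = 0.0126 from edgeR) and *Dpysl2* from 109 to 87.7 CPM (log2 fold change -0.32, adjusted p = 0.0153 from edgeR). *Farp2*, for an exchange factor that binds class A plexins, fell from 6.04 to 4.12 CPM (log2 fold change -0.55, adjusted p = 0.0423 from edgeR). *Dpysl2* lost the call without WT replicate 1, 3 or 4 (adjusted p = 0.0515, 0.0508 and 0.0561 from edgeR), at log2 fold changes of -0.33, -0.32 and -0.31. With 1 sample left out, *Farp2* kept the call only without KO replicate 1 or KO replicate 4, and its adjusted p from edgeR reached 0.110 in the other fits, where its log2 fold change ran from -0.58 to -0.49. It also lost the call with a replicate block (adjusted p = 0.121 from edgeR) and with no filter on low counts (adjusted p = 0.0884 from edgeR). With a covariate of Y-linked genes none of these genes passed, at adjusted p from 0.0502 to 0.0942 from edgeR, with log2 fold changes of -0.44 for *Dpysl3*, -0.29 for *Dpysl2* and -0.59 for *Farp2*. Of the netrin receptors outside the Unc5 family, *Neo1* was at -0.01 and *Dscam* at 0.24 (adjusted p = 0.722 from edgeR), and *Dcc* had too few counts for the test.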

How the data were processed

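Poly A+ RNA from 8 samples of E9.5 ventricles (4 WT, 4 KO) was isolated with the PicoPure kit, made into libraries with the NEBNext Ultra RNA kit and sequenced on a HiSeq2500 as single reads of 60 bases, with CASAVA v1.8 per the labels. The deposited values are expected counts per gene, which the authors estimated with RSEM 1.3.1 on GRCm38 after trimming with cutadapt, per the submitters' processing notes. The aligner and the use of strand are not given in the sources used here. Expected counts share out reads that fit several genes. Of the 51 members, 35 had whole counts in all samples and 16 had fractions.

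The table held 53465 rows, of which 53274 were matched to a symbol, position and exon length in GENCODE M21. Counts were rounded and genes kept by edgeR's filter on low counts. TMM factors and the quasi-likelihood test of edgeR 4.0.16 (R 4.3.3) compared KO with WT over 14451 genes, with Benjamini-Hochberg adjustment and a threshold of 0.05. Intervals are 95% intervals of that fit. CPM were TMM-scaled, and per-sample log2 values used a pseudocount of 0.5. Total counts were 11852506 to 14360427 per sample. On simulated counts with 200 changed genes, the test of KO against WT recovered 73.8% of 107 genes changed by a log2 size of 1. It recovered 93.5% of 93 genes changed by 2, and 14 of its calls among the 14240 genes tested were false. No size below 1 was simulated, so these shares do not cover smaller falls such as the -0.44 of *Sema3c*.

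The members, gene lists and tests were chosen with earlier results of these data known. Named are the members past the threshold, *Sema3c*, the genes of 10 known ligand to receptor pairs, the member of each class with the highest WT level per length, other pathway genes past the threshold, and *Nrg1*. Members near a threshold, or picked after their values were seen, were added. Alternative fits used limma-voom (limma 3.58.1), DESeq2 1.42.0, upper-quartile scaling, no filter or 10 counts in every sample, a table without hemoglobin or mitochondrial genes, sample number as an additive block, and mean Y-linked expression as covariate. Each sample was also left out in turn, and levels were recomputed per longest transcript. Promoter sequences are from RefSeq (GRCm38.p6).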

Additional observations from a re-analysis of the deposited data

Results flagged for a closer look

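In 8 of 102 groups of 4 samples, 1 sample stood apart from the other 3 by the 95% critical value of Dixon's ratio, the gap to the nearest sample over the group's range. Chance flags about 1 in 20 groups, which is 5.1 of 102. In 4 of the 8 the sample was KO replicate 1. It was lowest for *Efna4* (4.83 CPM against 10.4 to 10.7 CPM, ratio 0.939), *Efnb3* (95.4 CPM against 160 to 166 CPM, ratio 0.919), *Sema4b* (17.8 CPM against 20 to 20.1 CPM, ratio 0.933) and *Unc5b* (185 CPM against 219 to 226 CPM, ratio 0.834). KO replicate 2 was highest for *Sema3d* (19 CPM against 11.4 to 12.5 CPM, ratio 0.858) and *Ephb6* (4.78 CPM against 3.02 to 3.22 CPM, ratio 0.886). In WT, replicate 3 was highest for *Sema6a* (9.86 CPM against 8.45 to 8.58 CPM, ratio 0.907), and replicate 4 was lowest for *Plxnb1* (56.8 CPM against 66.1 to 66.7 CPM, ratio 0.939). None of the 5 genes that fell is among them.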

How the results depend on the processing

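*Sema3a*, *Sema3c*, *Ephb3* and *Epha7* passed in all 8 alternative fits and in all 8 fits without 1 sample, and *Epha4* in 6 and 7 of them. The sample numbers are not stated to pair the samples. Deviations of same-numbered samples correlated at 0.0105, -0.0911, -0.00381 and 0.0187, which does not settle whether samples were paired. In the fit with a replicate block, 616 genes were called in place of 1245 (398 higher and 218 lower), and *Epha4* lost its call. With the Y-linked covariate 534 genes were called (343 higher and 191 lower), *Epha4* had an adjusted p of 0.0575 from edgeR, and *Efnb2* and *Unc5b* turned to 0.0056 and 0.038. DESeq2 called 1759 genes (1027 higher and 732 lower) and 8 members, 7 lower and *Plxnb2* higher. It called 4 ligands, as did upper-quartile factors and the filter of 10 counts in every sample, which left 25 ligands. The median level per length of members moved from 3.03 to 3.89 CPM per kb with the longest transcript.

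With 1 sample left out, 509 (without WT replicate 1) to 2523 genes (without KO replicate 1) were called, 4 to 9 members, 2 to 5 ligands and 2 to 4 receptors. The ligand median ran from -0.023 to 0.071 and the receptor median from -0.20 to -0.099. Values near 0 changed sign: *Efnb2* ran from -0.045 to 0.041, *Efnb3* from -0.18 to 0.047, *Nrp1* from -0.021 to 0.082, *Plxna1* from -0.021 to 0.13, *Sema4d* from -0.19 to 0.20 and *Unc5b* from -0.044 to 0.052. The cause of these shifts was not tested. For 28 genes (those of the naming rule with *Nrp2* and *Plxnb2*, and not the other members picked for single values), 200 values from such fits kept direction and call, 10 lost the call, 4 gained it and 10 changed sign. In the other alternatives 206 kept both, 7 lost the call, 9 gained it and 2 changed sign. *Ntn4* and *Sema4a* had at most 20 and 19 counts in any sample.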
